A study of Rattus norvegicus with 19 samples.

Results

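The aryl hydrocarbon receptor gene Ahr and 3 genes whose products act with it, Arnt, Ahrr and Tiparp, were followed in rat liver arrays. They were selected by the array platform's gene symbol, and all 4 were measured, by 6 of the 31042 probe sets tested, which carry 14217 named genes. Where a gene had more than 1 probe set, the one with the highest mean over the 19 arrays stands for the gene. Ahr was represented by 1369146_a_at and 1369147_at, Tiparp by 1374446_at and 1385407_at, Arnt by 1369244_at and Ahrr by 1380746_at. Timed-mated Wistar Han dams were gavaged daily from gestation day 6 through postnatal day 4 with corn oil alone (vehicle, n = 5) or with corn oil carrying DE-71, a commercial pentabromodiphenyl ether flame retardant mixture, at 0.1 mg/kg (n = 5), 15 mg/kg (n = 4) or 50 mg/kg (n = 5) per day. RNA came from the left lateral liver lobe at postnatal day 4, all animals are labelled female, and every group shares strain, vehicle and dosing schedule. The labels do not state whether the liver was that of the dosed dams or of their pups. The labels do not state whether replicates came from separate litters, so a p-value here reflects only how far these arrays differ from each other. The series' design compares each dose with vehicle at a false discovery rate of 0.05.

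The aryl hydrocarbon receptor is a ligand-activated transcription factor held in the cytoplasm by a chaperone complex. After binding a planar aromatic ligand it moves to the nucleus, pairs with ARNT and binds DNA at the core GCGTG, from which it drives genes such as Cyp1a1, which encodes a monooxygenase that is strongly inducible in liver. AHRR, the receptor's repressor, competes with the receptor for ARNT, and TIPARP is a mono-ADP-ribosyltransferase that limits the receptor's activity; both are known as target genes of the receptor in several mammals.

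The 250 bases upstream of each annotated start are shown because Ahrr and Tiparp are known as target genes of the receptor. The 4 members differ in how often they carry the core that the receptor and ARNT bind. Sequences are those of RefSeq on the GRCr8 build, read 5′ to 3′ on the strand of the gene. All 4 genes matched an entry. Each match to GCGTG, or to its reverse complement CACGC, is in capitals.
Ahr, chr6:57998902-57999151, minus strand: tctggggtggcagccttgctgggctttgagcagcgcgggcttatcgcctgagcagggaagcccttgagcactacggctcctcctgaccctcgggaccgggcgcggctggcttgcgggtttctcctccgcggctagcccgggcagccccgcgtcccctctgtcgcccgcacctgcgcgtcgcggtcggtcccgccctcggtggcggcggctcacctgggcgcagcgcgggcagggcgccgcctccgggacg
Arnt, chr2:185686453-185686702, plus strand: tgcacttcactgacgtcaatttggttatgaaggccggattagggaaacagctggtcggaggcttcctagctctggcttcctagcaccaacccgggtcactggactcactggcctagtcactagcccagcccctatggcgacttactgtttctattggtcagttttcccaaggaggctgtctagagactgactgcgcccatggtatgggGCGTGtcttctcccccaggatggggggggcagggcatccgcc
Ahrr, chr1:30821969-30822218, plus strand: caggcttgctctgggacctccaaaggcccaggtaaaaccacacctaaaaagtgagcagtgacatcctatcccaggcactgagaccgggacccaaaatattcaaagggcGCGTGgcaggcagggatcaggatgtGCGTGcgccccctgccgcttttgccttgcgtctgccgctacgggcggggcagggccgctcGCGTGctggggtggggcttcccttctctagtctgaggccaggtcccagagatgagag
Tiparp, chr2:152063519-152063768, plus strand: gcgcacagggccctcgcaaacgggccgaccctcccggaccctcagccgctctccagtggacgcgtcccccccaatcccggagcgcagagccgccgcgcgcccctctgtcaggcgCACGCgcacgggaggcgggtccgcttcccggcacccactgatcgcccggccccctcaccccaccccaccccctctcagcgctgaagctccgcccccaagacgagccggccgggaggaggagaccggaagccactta

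The Ahrr window held 3 copies of the core, which began at bases -142, -117 and -57 from the start. The last of them lay within the longer form TNGCGTG, at bases -59 to -53. Arnt held 1 copy at bases -42 to -38, Tiparp held 1 on the opposite strand at bases -136 to -132, and the Ahr window held 0. Among 33469 rat promoter windows of the same length, 25.9% held the core on either strand and 4.09% held TNGCGTG, so 1 copy is common. ACGTG, which is only 1 form of the hypoxia-type core, was searched on both strands. It occurred 0 times in the 4 windows and in 16.6% of all windows. The windows of Ahr and Tiparp were rich in G and C, at 75.2% and 74.8%, against 57.6% for Arnt, 62.0% for Ahrr and a median of 51.2% over all windows. A match gives only the presence of these letters, since binding was not measured.

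Values are the deposited log2 signals, on which 1 unit is a doubling, and they ranged from 2.4 to 15.06. The medians of the 19 arrays lay between 6.05 and 6.16. Hepatocyte markers were high, with a mean over 8 of the 9 listed genes of 14.22 to 14.33 on every array, so near the top of the range that differences between arrays may not show. Alb, the albumin gene, gave 15.01 to 15.06, and Afp, the fetal plasma protein gene, gave 14.47 to 14.70. Transcripts of other tissues were present on some arrays. The mean over 7 of 8 kidney genes was 10.24 on vehicle replicate 2 and on 0.1 mg/kg replicate 2, and 7.27 on 50 mg/kg replicate 3, where the median array had 4.53. The exocrine pancreas list (10 of 10 genes) reached 8.59 and 8.58 on the same vehicle and 0.1 mg/kg arrays, 7.98 on 15 mg/kg replicate 5 and 7.33 on vehicle replicate 4, where the median array had 5.24. The skeletal muscle list (9 of 10 genes) reached 11.57 and 9.40 on vehicle replicates 1 and 5 and 9.77 and 9.53 on 50 mg/kg replicates 2 and 3. At 15 mg/kg it was 7.10, 7.78 and 6.52 on replicates 2, 4 and 5, and the median array had 5.06. In whole tissue, fewer cells of a type and less RNA per cell cannot be told apart.

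Of the 19 arrays, 3 stood apart, 2 by their likeness to each other and 1 by its Cyp1a1 signal. Vehicle replicate 2 and 0.1 mg/kg replicate 2 differed from each other with an SD of only 0.128 over all probe sets, the smallest of the 171 array pairs, where the next smallest was 0.197. The nearest other array to vehicle replicate 2 differed from it by 0.494. On 0.1 mg/kg replicate 1, Cyp1a1 read 14.06, within the range of the 50 and 15 mg/kg arrays, while the other 4 arrays at 0.1 mg/kg read 7.19 to 8.42. Results for the members are therefore given with all 19 arrays and without these 3. The array numbers in the labels were uneven across doses, since 4 of 5 arrays at 50 mg/kg, but 1 vehicle array, 1 at 0.1 mg/kg and 1 at 15 mg/kg, were numbered 1 to 8, and the others 9 to 20. The labels do not say what the numbers stand for.

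Ahr had a higher mean at the higher doses, but the difference did not pass the test with all arrays. Vehicle replicates 1 to 5 read 5.92, 4.76, 6.13, 6.72 and 6.26 on the log2 scale, with a mean of 5.96 ± 0.732 (SD, n = 5). The arrays at 0.1 mg/kg read 7.11, 4.80, 6.30, 6.68 and 6.50, a mean of 6.28 ± 0.879 (SD, n = 5). The lowest signal in each of these groups was on its member of the near-coinciding pair, and the highest at 0.1 mg/kg was on the array with the high Cyp1a1. At 15 mg/kg, replicates 2 to 5 read 7.35, 6.90, 7.05 and 7.03, a mean of 7.08 ± 0.191 (SD, n = 4). At 50 mg/kg, replicates 1 to 5 read 6.96, 7.51, 6.76, 7.54 and 6.79, a mean of 7.11 ± 0.385 (SD, n = 5). Every array at 15 and 50 mg/kg was above every vehicle array, but the gap between the highest vehicle array and the lowest at 50 mg/kg was 0.04, and the gap to 15 mg/kg was 0.18. Groups separated in this direction for 3.21% of all probe sets at 50 mg/kg and for 2.21% at 15 mg/kg.

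**Figure D1:**
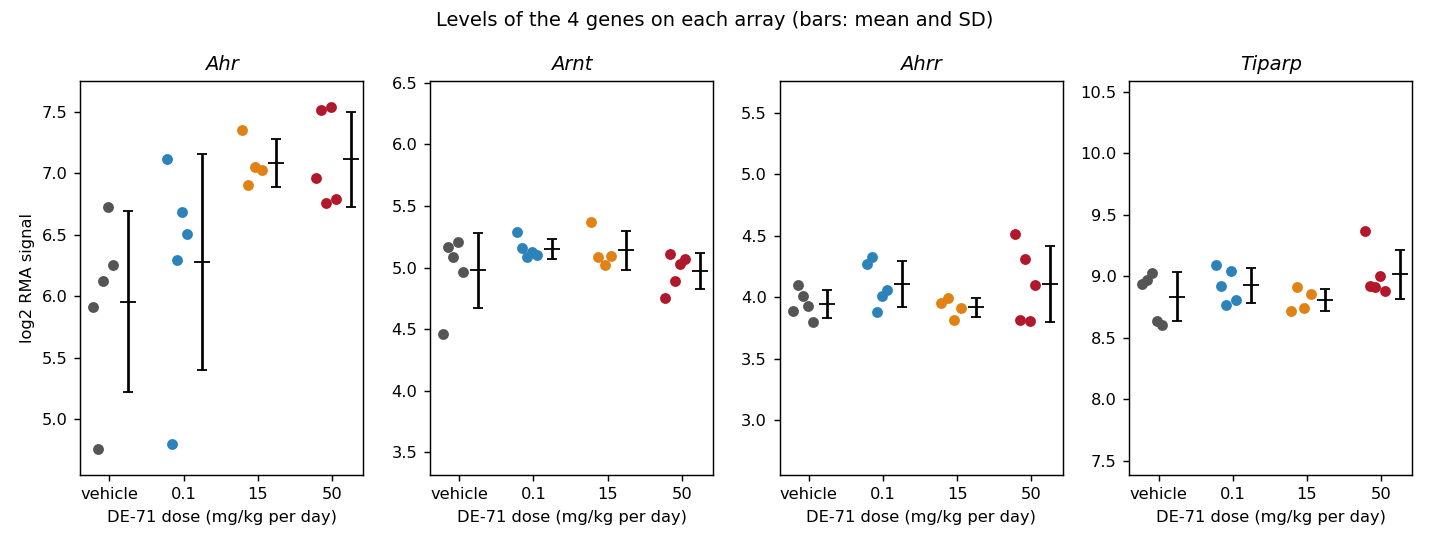
Deposited log2 signal (vertical axis) of the lead probe sets of Ahr, Arnt, Ahrr and Tiparp in the 4 dose groups (horizontal axis), 1 point per array with the group mean and SD, every panel spanning the same number of log2 units. Ahr is the member with the widest spread, with vehicle arrays from 4.76 to 6.72 and 50 mg/kg arrays from 6.76 to 7.54.

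In the limma fit over all 31042 probe sets, Ahr differed between 50 mg/kg and vehicle by 1.15 (SE 0.368; 95% interval 0.38 to 1.93), a 2.23-fold difference with an unadjusted p of 0.00571 and an adjusted p of 0.126. The difference at 15 mg/kg was 1.13 (SE 0.390; interval 0.31 to 1.95), with a limma adjusted p of 0.439. At 0.1 mg/kg it was 0.32 (interval -0.45 to 1.10; limma adjusted p of 1.00), and between 50 and 15 mg/kg it was 0.03 (interval -0.79 to 0.85; limma adjusted p of 0.997). The neighbouring levels of 50 and 15 mg/kg, and of 0.1 mg/kg and vehicle, thus lay within the spread between arrays, and 15 against 0.1 mg/kg was not tested. None of the 4 members passed an adjusted p of 0.05 in any of the 4 comparisons, where 1.61% of probe sets passed at 50 mg/kg and 0% passed in the other 3. At an unadjusted p under 0.05, Ahr alone among the lead probe sets passed, at 50 and at 15 mg/kg, where 17.3% and 9.92% of all genes did.

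Without the 3 arrays, Ahr passed the test at the highest dose. The remaining vehicle arrays read 5.92 to 6.72, and the difference at 50 mg/kg was 0.86 (SE 0.189; limma adjusted p of 0.0344), where 1.59% of probe sets passed. At 15 mg/kg it was 0.83 (SE 0.199) with a limma adjusted p of 0.300, where 0.0322% of probe sets passed. Leaving out only the near-coinciding pair gave 0.86 at 50 mg/kg, with a limma adjusted p of 0.0502. These left-out arrays were chosen after the data had been seen, 0.1 mg/kg replicate 1 for its Cyp1a1 value, and the adjusted p of Ahr fell below 0.05 only when that array was left out as well. The difference was thus smaller without the 3 arrays, and its standard error was 0.189 in place of 0.368.

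Ahr was lowest on the 2 arrays of the near-coinciding pair, which also had the highest kidney and pancreas lists. With a kidney list mean of 10.24 they read 4.76 and 4.80 for Ahr, the lowest of the 19 values. At 50 mg/kg the array with a kidney mean of 7.27 read 6.76, the lowest of its group, while Ahr was 6.79 to 7.54 on the other 4. Ahr was not low on the other arrays with pancreas transcripts, since 15 mg/kg replicate 5, with a pancreas mean of 7.98, read 7.03, and vehicle replicate 4, with 7.33, read 6.72, the highest of the vehicle arrays. The part of these transcripts in the Ahr values was not tested. Array number moved with dose as well. Among arrays numbered 1 to 8, the single vehicle array read 5.92, the single 15 mg/kg array 7.35 and the 4 arrays at 50 mg/kg 6.76 to 7.54, a difference from vehicle of 1.28. Among arrays numbered 9 to 20, the 4 vehicle arrays read 4.76 to 6.72, the 3 at 15 mg/kg read 6.90 to 7.05 and the single 50 mg/kg array read 6.79, a difference of 0.82. With early against late array number as a block, the difference at 50 mg/kg was 0.89, with a limma adjusted p of 0.413.

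**Figure D2:**
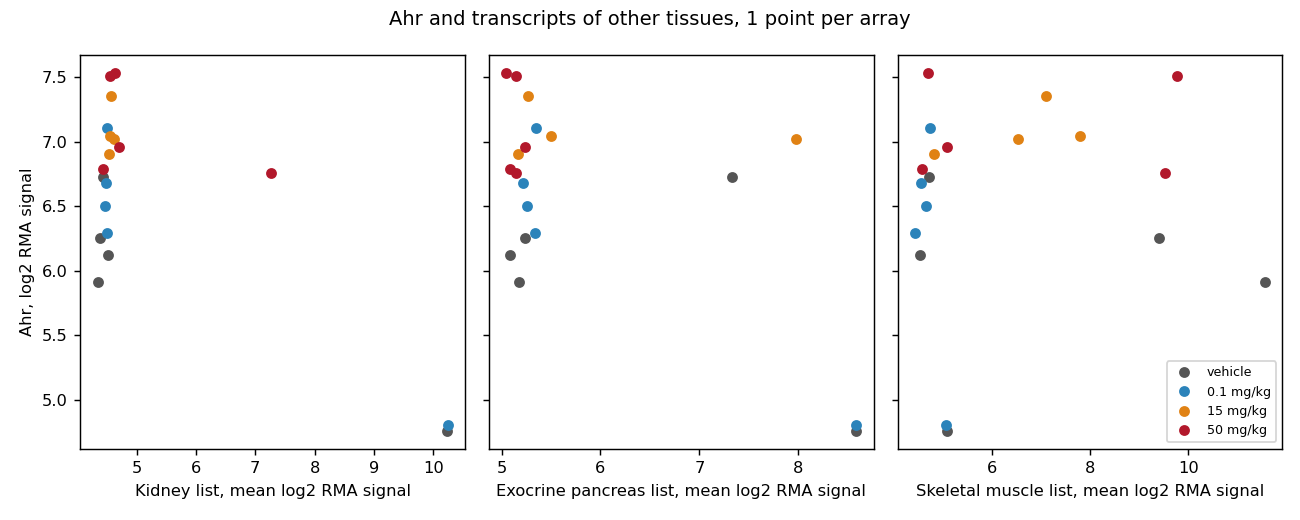
Ahr log2 signal (vertical axis) against the mean log2 signal of the kidney, exocrine pancreas and skeletal muscle marker lists (horizontal axes), 1 point per array, coloured by dose. The 2 arrays with a kidney mean of 10.24 have the lowest Ahr signals, 4.76 and 4.80.

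The second Ahr probe set, 1369147_at, read lower and gave a smaller difference. Its vehicle arrays read 4.18, 4.51, 4.62, 4.72 and 4.72, and its 50 mg/kg arrays read 4.94, 4.45, 4.95, 4.99 and 4.72. The groups overlapped. The difference at 50 mg/kg was 0.26 (limma adjusted p of 0.396) and at 15 mg/kg, where arrays read 4.50 to 5.27, it was 0.33 (limma adjusted p of 0.490). Averaging both probe sets gave 0.71 at 50 mg/kg, with a limma adjusted p of 0.0997. The size of the Ahr difference therefore depended on the probe set, although both lay above vehicle at both doses on average.

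Arnt, the partner that the receptor shares with the hypoxia-inducible factors, had nearly the same mean in vehicle and at 50 mg/kg. Vehicle arrays read 4.46, 5.17, 5.08, 5.21 and 4.96, a mean of 4.98 ± 0.305 (SD, n = 5), and the 50 mg/kg arrays read 4.75, 5.11, 4.89, 5.03 and 5.07, a mean of 4.97 ± 0.148 (SD, n = 5). The arrays at 0.1 mg/kg read 5.29, 5.16, 5.08, 5.13 and 5.10, and those at 15 mg/kg read 5.37, 5.08, 5.02 and 5.09. All 4 groups overlapped, and the low end of the vehicle group was replicate 1, the array with the highest muscle list mean. The next highest muscle means, 9.77, 9.53 and 9.40, were on 50 mg/kg replicates 2 and 3 and vehicle replicate 5. Arnt read 5.11, 4.89 and 4.96 there. The part of muscle transcripts in the Arnt values was not tested. The difference at 50 mg/kg was -0.01 (interval -0.26 to 0.24; limma adjusted p of 0.985), which as a fold spans 0.837 to 1.18. At 15 mg/kg it was 0.16 (interval -0.10 to 0.43; limma adjusted p of 0.659) and at 0.1 mg/kg 0.17 (interval -0.08 to 0.42). Between 50 and 15 mg/kg it was -0.17 (interval -0.44 to 0.09; limma adjusted p of 0.822). A difference in the Arnt signal as large as the 1.15 or 1.13 of Ahr at the higher doses lay outside the Arnt intervals at those doses. These intervals cover the signal of 1 probe set only. Its mean was low, at 5.06 with 35.5% of probe sets lower, so a change in the transcript may be understated.

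Ahrr, the repressor, gave a signal near the low end of the array's range, where only 17.9% of probe sets had a lower mean. Vehicle arrays read 3.89, 4.10, 4.01, 3.93 and 3.80, a mean of 3.95 ± 0.116 (SD, n = 5), and the 15 mg/kg arrays read 3.95, 3.99, 3.82 and 3.91, a mean of 3.92 ± 0.0755 (SD, n = 4). The 50 mg/kg arrays read 4.52, 3.82, 4.31, 3.81 and 4.10, a mean of 4.11 ± 0.310 (SD, n = 5), and those at 0.1 mg/kg read 4.27, 4.32, 3.88, 4.01 and 4.06, a mean of 4.11 ± 0.185 (SD, n = 5). At 50 mg/kg, 2 arrays lay above all vehicle arrays and the others lay among them, so the groups overlapped. The difference was 0.16 at 50 mg/kg (interval -0.09 to 0.42; limma adjusted p of 0.542), -0.03 at 15 mg/kg (interval -0.30 to 0.25; limma adjusted p of 0.950) and 0.16 at 0.1 mg/kg. Between 50 and 15 mg/kg it was 0.19 (interval -0.08 to 0.46; limma adjusted p of 0.785). With a signal this close to the floor of the array, a small change may not have been detectable.

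Tiparp, the ADP-ribosyltransferase, was well above the middle of the signal range, with 84.2% of probe sets at a lower mean, and did not pass the test at any dose. Vehicle arrays read 8.94, 8.97, 9.03, 8.63 and 8.61, a mean of 8.84 ± 0.199 (SD, n = 5), and the 50 mg/kg arrays read 9.37, 8.92, 8.92, 9.0 and 8.88, a mean of 9.02 ± 0.200 (SD, n = 5). The arrays at 0.1 mg/kg read 9.10, 8.92, 8.77, 9.05 and 8.81 (mean 8.93 ± 0.143, SD, n = 5), and those at 15 mg/kg read 8.72, 8.91, 8.74 and 8.86 (mean 8.81 ± 0.0913, SD, n = 4). One array, 50 mg/kg replicate 1, lay above all others, and the groups otherwise overlapped. The difference at 50 mg/kg was 0.18 (interval -0.04 to 0.40; limma adjusted p of 0.423), so a fold of more than 1.32 lay outside the interval. At 15 mg/kg it was -0.03 (interval -0.26 to 0.21; limma adjusted p of 0.940), at 0.1 mg/kg 0.09, and between 50 and 15 mg/kg 0.21 (interval -0.03 to 0.44; limma adjusted p of 0.692). The second probe set, 1385407_at, read 5.63 to 6.69 in vehicle and 6.04 to 6.59 at 50 mg/kg, and differed by -0.07 (limma adjusted p of 0.888). Its sign at 50 mg/kg was opposite to that of the lead probe set, and neither passed the test.

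**Figure D3:**
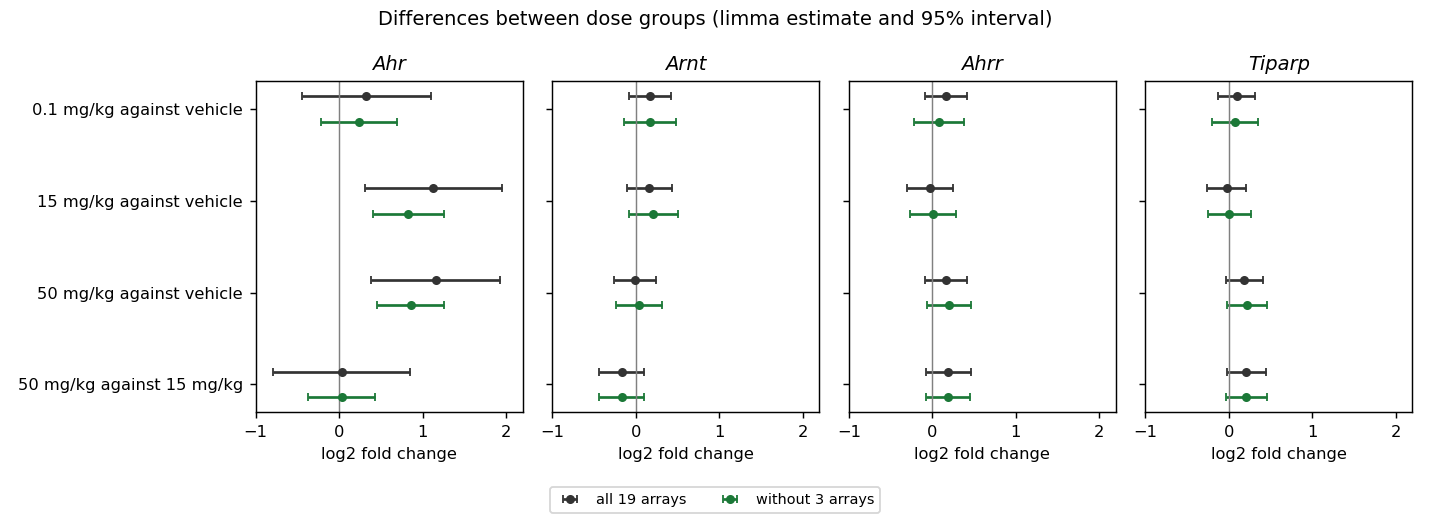
Log2 differences of the lead probe set of each gene in the 4 comparisons (horizontal axis, with 95% intervals from the limma fit), with all 19 arrays and without the 3 arrays that stood apart. Of the 4 genes, Ahr is the one whose intervals at 50 and 15 mg/kg lie wholly above 0 in both settings, around 1.15 and 0.86 at the higher dose.

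Cyp1a1, the monooxygenase gene that serves as the standard readout of the receptor, changed far more than any member. Vehicle arrays read 7.10, 7.57, 7.97, 7.43 and 8.36, and the 50 mg/kg arrays read 14.30, 14.11, 14.22, 14.13 and 14.24. The arrays at 15 mg/kg read 14.17, 13.34, 13.68 and 13.16, and those at 0.1 mg/kg read 14.06, 7.19, 8.24, 7.64 and 8.42. At both higher doses every array was above every vehicle array. Cyp1a1 rose at 50 mg/kg by 6.51 (SE 0.864), a 91.3-fold difference with a limma adjusted p of 0.00123. The difference at 15 mg/kg was 5.90 (SE 0.917) with a limma adjusted p of 0.0724, and without the 3 arrays it was 5.87. The lowest array at 15 mg/kg was 4.80 above the highest vehicle array. All groups share 1 estimate of the spread in this fit. The SD of Cyp1a1 was 2.81 at 0.1 mg/kg, against 0.491 in vehicle and 0.442 at 15 mg/kg. At 0.1 mg/kg the difference from vehicle was 1.42 with all arrays and 0.39 without the 3. One of the 3 was left out for its Cyp1a1 value, so no test of Cyp1a1 without them is given.

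Set beside Cyp1a1 array by array, Ahr was high on the same arrays. The 9 arrays at 15 and 50 mg/kg had Cyp1a1 from 13.16 to 14.30 and Ahr from 6.76 to 7.54. The array at 0.1 mg/kg with Cyp1a1 of 14.06 had been singled out for that value. It had Ahr of 7.11, Arnt of 5.29, Ahrr of 4.27 and Tiparp of 9.10, each above every vehicle array. The share of all probe sets doing so was not computed, so these values describe that array only and are not a result about the members. At 50 mg/kg the arrays above every vehicle array were 5 of 5 for Ahr, 0 for Arnt, 2 for Ahrr and 1 for Tiparp. At 15 mg/kg they were 4 of 4, 1, 0 and 0. With low Cyp1a1, 0.1 mg/kg replicate 2 had Ahrr of 4.32 and replicate 4 had Tiparp of 9.05, also above every vehicle array. The remaining 9 arrays of vehicle and 0.1 mg/kg had Cyp1a1 from 7.10 to 8.42 and Ahr from 4.76 to 6.72. Because the arrays fell into separate ranges, no correlation over all 19 is given. Within these ranges, 8 relations were computed in all and none passed after adjustment. In the upper range Cyp1a1, at 13.16 to 14.30, was near the highest value of all probe sets, 15.06. Differences in Cyp1a1 between those arrays may therefore not show, which limits what a relation there can tell. For Ahr, Pearson's r was 0.44 over the 9 arrays (exact permutation p of 0.246; Spearman's rho 0.37, exact p of 0.336) and 0.16 over the 10 arrays (permutation p of 0.671; rho -0.22, p of 0.539).

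For each of the other members r differed in sign between the ranges, and none of the relations passed. Among the 10 arrays with high Cyp1a1, r was 0.42 for Ahrr (permutation p of 0.228; rho 0.52, p of 0.135), 0.35 for Tiparp (permutation p of 0.321; rho 0.32, p of 0.368) and -0.13 for Arnt (permutation p of 0.725; rho -0.41, p of 0.248). Among the 9 arrays with low Cyp1a1, r was -0.39 for Ahrr (exact permutation p of 0.306), -0.39 for Tiparp (exact permutation p of 0.294) and 0.28 for Arnt (exact permutation p of 0.580), with rho of -0.24, -0.28 and -0.24 and exact p of 0.528, 0.463 and 0.528. Over the 8 relations the Benjamini-Hochberg adjusted permutation p ran from 0.513 to 0.725 for r and was 0.539 for rho. Without the 2 arrays farthest from the median of Cyp1a1, r in the low range was 0.35 for Ahr, 0.41 for Arnt, -0.36 for Ahrr and -0.05 for Tiparp. In the high range the same step gave -0.15, -0.19, 0.55 and 0.48. Neither Ahrr nor Tiparp followed Cyp1a1 in scale, since their whole ranges over the 19 arrays were 0.719 and 0.759, against 7.20 for Cyp1a1.

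**Figure D4:**
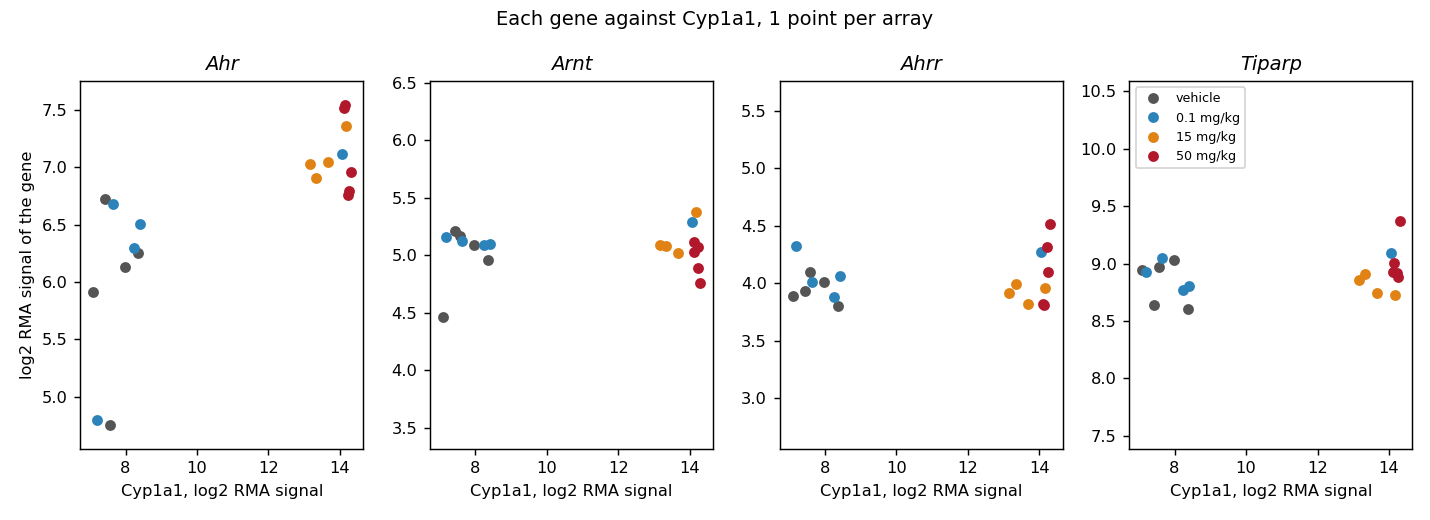
Log2 signal of each member's lead probe set (vertical axis) against the log2 signal of Cyp1a1 (horizontal axis), 1 point per array, coloured by dose, every panel spanning the same number of log2 units. Arrays lie in 2 ranges along the Cyp1a1 axis, 7.10 to 8.42 and 13.16 to 14.30, and the 0.1 mg/kg array in the upper range has an Ahr signal of 7.11.

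Several genes known as targets of the receptor rose at 50 mg/kg, where none of the members passed. Ahrr and Tiparp are also known as targets but, as members, were not in the target list. That list was chosen with earlier results of these data known. Of 9 measured target genes, 6 rose and 0 fell, with a median difference of 0.88, against 1.79% of all genes higher, 0.443% lower and a median of 0.01. Beside Cyp1a1, these were Cyp1a2, a liver monooxygenase of the same family, by 5.75 (SE 0.879; limma adjusted p of 0.00345), Cyp1b1, a largely extrahepatic relative, by 3.18 (SE 0.766; limma adjusted p of 0.0442), and Nqo1, a quinone reductase, by 2.85 (SE 0.368; limma adjusted p of 0.00123). Nfe2l2, which encodes the antioxidant factor NRF2, rose by 0.88 (SE 0.154; limma adjusted p of 0.00817), from 10.37 to 10.63 in vehicle to 11.17 to 11.61 at 50 mg/kg. Ugdh, which makes the sugar donor for glucuronidation, rose by 0.70 (SE 0.119; limma adjusted p of 0.00699), from 9.56 to 10.09 to 10.33 to 10.82. The 3 that did not pass were Slc7a5, an amino acid transporter (-0.21; limma adjusted p of 0.681), Aldh3a1, an aldehyde dehydrogenase (-0.01; 0.971), and Cyp2s1, a monooxygenase (-0.01; 0.977). Of the 9 targets 0 passed at 15 mg/kg, with a median of 0.51 and 4 at an unadjusted p under 0.05, where over all genes the median was -0.00 and 1411 of 14217, or 9.92%, had such a p. Cyp1b1 passed in 10 of 24 alternatives, and Nfe2l2 and Ugdh did not pass when early against late array number was a block (limma adjusted p of 0.0791 and 0.0600).

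The genes of the receptor's complex and family did not pass at any dose. Of 7 genes of its chaperone complex, 0 rose and 0 fell at 50 mg/kg, against 1.79% and 0.443% of all genes. Their median was -0.02, and 2 had an unadjusted p under 0.05, against 17.3% of all genes. The largest differences were -0.27 for Src, a kinase carried with the complex (limma adjusted p of 0.323), 0.20 for Ptges3, a co-chaperone (0.118), and 0.13 for Hsp90ab1, a heat shock protein (0.750). Of 12 other factors of the bHLH-PAS family, to which the receptor and ARNT belong, 0 passed, with a median of 0.06 and 1 at an unadjusted p under 0.05. Npas3 (-0.55; limma adjusted p of 0.135) and Sim2 (-0.51; 0.783) differed most, although Sim2 differed by 0.08 without vehicle replicate 2, which read 6.73. Sim1 came next at 0.24 (0.680). Hif1a and Epas1, the oxygen-regulated factors that also pair with ARNT, differed by 0.02 and 0.08, and Arnt2, a close relative of Arnt, by 0.10.

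Transcriptional coregulators and the target genes of the other ARNT partners gave the same count. Of 15 coregulators 0 passed, with a median of -0.02 and 4 at an unadjusted p under 0.05, and the largest differences were -0.36 for Ncoa7 (limma adjusted p of 0.467; -0.17 without vehicle replicate 2), -0.29 for Rb1 (0.521) and 0.27 for Ncoa2 (0.219). Of 15 hypoxia-inducible factor targets 0 passed, with a median of 0.18 and 6 at an unadjusted p under 0.05. The largest were -0.55 for Ndrg1 (limma adjusted p of 0.711), which was 0.03 without vehicle replicate 2 and its signal of 10.59, 0.51 for Pdk1, a kinase that restrains pyruvate oxidation (0.0842), and 0.36 for Slc2a1, a glucose transporter (0.277). Over all genes, 2455 of 14217 had an unadjusted p under 0.05 at this dose.

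Among 16 other enzymes that, like the product of Tiparp, add or remove ADP-ribose, 1 rose and 1 fell at 50 mg/kg. Over all genes, 1.79% rose and 0.443% fell. The median of the 16 was 0.07, and 8 had an unadjusted p under 0.05, against 17.3% of all genes. Parp1, the main DNA damage sensing polymerase of ADP-ribose, read 9.69 to 9.96 in vehicle, 9.97 to 10.17 at 15 mg/kg and 10.27 to 10.56 at 50 mg/kg. It rose at 50 mg/kg by 0.53 (SE 0.0878), a 1.44-fold difference with a limma adjusted p of 0.00556, while the block of early against late array number gave a limma adjusted p of 0.0600. Tnks2, a tankyrase, fell by 0.32 (SE 0.0723; limma adjusted p of 0.0343) and passed in 8 of 24 alternatives. Parp9 and Parp14, which belong to the interferon-associated members, differed by 0.49 (limma adjusted p of 0.0772) and 0.38 (0.0692). At 15 and 0.1 mg/kg, 0 genes of any of these lists passed with all 19 arrays. The counts describe the lists only.

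**Figure D5:**
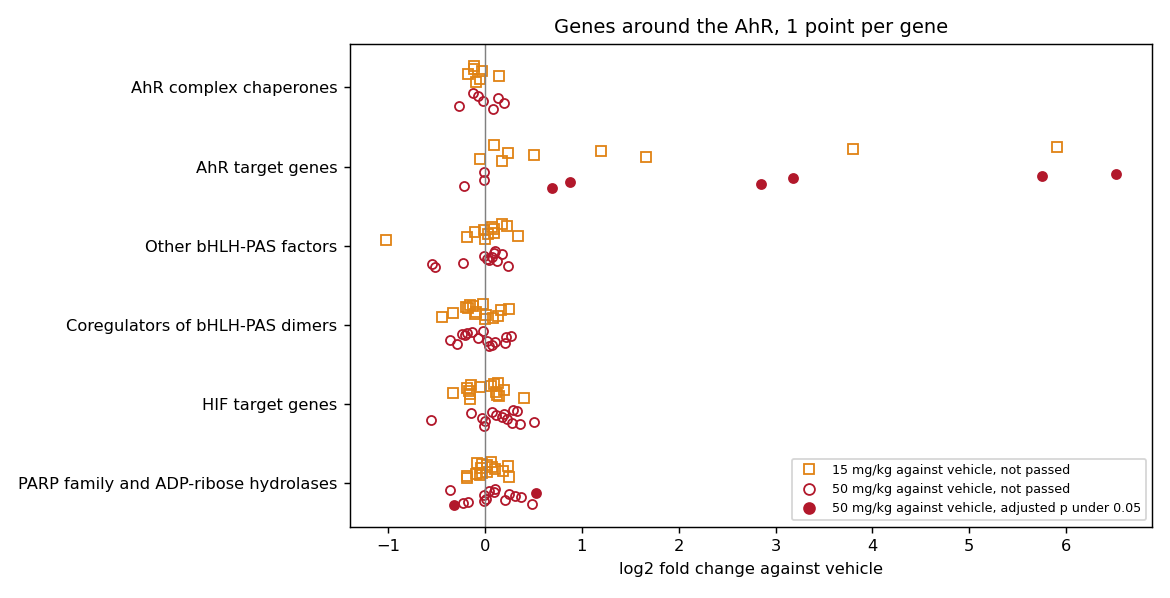
Log2 differences from vehicle (horizontal axis) of every measured gene of the 6 pathway lists, 1 circle per gene at 50 mg/kg and 1 square per gene at 15 mg/kg, filled where the adjusted p was under 0.05. The target genes reach 6.51 for Cyp1a1 at 50 mg/kg, and the filled circles outside that list are Parp1 at 0.53 and Tnks2 at -0.32.

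The genes most like each member over the 19 arrays were sought among the 7109 genes at or above the median level, and are given as a description. All share these arrays and their doses. For Ahr they were Psmd9 (r of 0.912), Slc39a14 (0.905) and Cutc (0.893), and without the near-coinciding pair these became 0.880, 0.715 and 0.665. For Arnt they were Wdr5 (0.800), Supt6h (0.684) and Fgfr1op2 (0.680), for Ahrr Thnsl2 (0.724), Tjp1 (0.704) and Sf3b6 (0.691), and for Tiparp Cdc26 (0.799), Selenoh (0.763) and Rars1 (0.756). The values for Arnt and Tiparp moved little without the pair, to 0.805 for Wdr5 and 0.809 for Cdc26. Of the 12 correlations, those of Slc39a14 and Cutc with Ahr changed most.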

How the data were processed

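Liver RNA was hybridised to Affymetrix Rat230_2 arrays, 1 per sample. The authors deposited log2 values made with RMA, per the submitters' processing notes; the version was not given in the sources used here. These values were used as deposited. The file held 31099 probe sets, of which 57 controls were left out. GEO's platform annotation gave 1 gene symbol for 20826 probe sets, several for 436 and none for 9780, and 20758 matched a RefSeq gene. limma 3.58.1 in R 4.3.3 fitted 1 mean per dose group over all 19 arrays, with two-sided moderated tests and Benjamini-Hochberg adjustment over 31042 probe sets per comparison, and was tested on simulated data. Named genes were the members, Cyp1a1, every list gene past an adjusted p of 0.05, up to 3 of each list with the largest difference at 50 mg/kg, and the 3 genes most like each member; Hif1a, Epas1, Arnt2, Slc7a5, Aldh3a1 and Cyp2s1 were added after their values were seen. The members and lists were chosen with earlier results of these data known. The number of arrays limits the precision. Alternatives covered filters, normalisation, blocks, array weights, probe set choice and left-out arrays.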

Additional observations from a re-analysis of the deposited data

Results flagged for a closer look

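Among the probe sets of the members and Cyp1a1, 3 values stood far from the other arrays of their group by Dixon's criterion, which chance meets in about 1 in 20 groups. On 50 mg/kg replicate 1 both Tiparp probe sets were high. The lead probe set 1374446_at read 9.37 where the next highest array read 9.0, and 1385407_at read 6.59 where the next read 6.18. On 0.1 mg/kg replicate 1 Cyp1a1 read 14.06, where the next highest array of that group read 8.42.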

How the results depend on the processing

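Across 22 to 24 alternatives per comparison, no member passed an adjusted p of 0.05 except Ahr at 50 mg/kg, which kept its direction in all 24 (adjusted p of 0.0344 to 0.620) and passed in 1, without the 3 arrays (0.86, limma adjusted p of 0.0344). Leaving out 1 array at a time gave 0.86 to 1.35. Without the 10 arrays of other tissues and 0.1 mg/kg replicate 1, which left 1 vehicle array, 1 at 15 mg/kg and 3 at each other dose, it was 0.97 with a limma adjusted p of 0.620; the lone arrays are there assumed to vary like the other groups. With the replicate number as a block, Ahr differed by 1.15 (limma adjusted p of 0.114) at 50 mg/kg and 1.18 (0.292) at 15 mg/kg; the labels give no shared litter or day, and same-numbered deviations correlated between -0.534 and 0.889, so the numbers were not taken as pairs. That block changed no call of a member, but Tnks2 had a limma adjusted p of 0.0544.

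Small differences that passed nowhere changed sign, and the cause was not tested. Ahr between 50 and 15 mg/kg became -0.025 with the replicate block, -0.019 with the mean of its probe sets, -0.21 with the block of array numbers 1 to 8 against 9 to 20 and -0.032 with that block without the 3 arrays; single arrays left out gave -0.078 to 0.12, and without other-tissue arrays it was 0.19. Arnt at 50 mg/kg became 0.0057 with array number as a covariate, 0.042 with the array number block, 0.029 with arrays centred on their medians, 0.042 without the pair or the 3 arrays and 0.12 with the block without the 3 (single arrays -0.14 to 0.052). Ahrr at 15 mg/kg became 0.016 with the replicate block, 0.0014 with array weights and 0.012 without the pair, the 3 arrays or with the block without them (single arrays -0.063 to 0.012). Tiparp at 15 mg/kg became 0.024 with the replicate block, 0.0050 with cyclic loess, 0.043 with array weights and 0.0060 without the pair, the 3 arrays or with the block without them (single arrays -0.084 to 0.021; without other-tissue arrays -0.12). Without other-tissue arrays, where vehicle and 15 mg/kg are 1 array each, Arnt at 15 mg/kg was -0.0026 (single arrays 0.03 to 0.22), Ahrr at 0.1 mg/kg -0.028 (0.11 to 0.22) and Tiparp at 0.1 mg/kg -0.15 (0.04 to 0.14). Cyp1a1 between 50 and 15 mg/kg (0.61) became -0.15 with the covariate and -0.24 with the array number block.

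Counts moved more. At 50 mg/kg 499 probe sets passed, against 171 with the covariate, 57 with the array number block, 921 with array weights, 216 with the block without the 3 arrays, 7 without other-tissue arrays and 178 to 593 without single arrays. None passed at 15 mg/kg, against 4 with the low-signal filter, 8 with the covariate, 7 with the array number block, 13 with weights, 10 without the 3 arrays, 14 with the block without them, and 2 each without other-tissue arrays and in the fit of the 2 groups. At 0.1 mg/kg 2 passed without other-tissue arrays; between 50 and 15 mg/kg 2 passed without the pair and 1 without other-tissue arrays. Target gene calls at 50 mg/kg went from 6 to 3 with the array number block and 2 without other-tissue arrays (single arrays 5 to 6), and at 15 mg/kg from 0 to between 1 and 3 under 9 of 23 alternatives (2 without the 3 arrays). Hypoxia target calls reached 2 with weights and 1 without vehicle replicate 3, and ADP-ribose enzyme calls ran from 0 to 4. The low-signal filter leaves out Arnt and Ahrr, which gave no value there. The near-floor Ahrr signal and 4 or 5 arrays per group limit what can be seen.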
